A study of Mus musculus with 4 samples.

Results

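The genes described here encode subunits of voltage-gated calcium channels. They were the 9 genes Cacna1c, Cacna1d, Cacna1g, Cacna1h, Cacnb1, Cacnb2, Cacnb3, Cacna2d1 and Cacna2d2, and their peaks were taken from 2 deposited lists of m6A-enriched regions by gene name. N6-methyladenosine (m6A) is a methyl mark on RNA, mapped here by MeRIP-seq, in which RNA fragments are pulled down with an m6A antibody (the IP) and sequenced beside the unselected input. One list came from hearts of Wtapflox/flox mice, the controls, which carry the floxed alleles, and the other from hearts of Wtap-CKO mice, the knockouts. All mice were 4 days old, and RNA of 7 control and of 8 knockout mice was pooled, so each genotype had 1 IP and 1 input library and there were no replicates. Which Cre removed Wtap, and in which heart cells, is not stated in the sources used here. Of the 9 genes, 8 had a peak, among 12182 genes with a peak in either list. They held 25 of 20766 control peaks and 19 of 21179 knockout peaks. Cacna2d2 had no peak in either list analysed here.

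A voltage-gated calcium channel opens when the membrane depolarises and lets calcium into the cell. In heart muscle the entering calcium triggers release of more calcium from the sarcoplasmic reticulum, which starts contraction. The pore is an alpha1 subunit, of the long-lasting L type (Cacna1c, Cacna1d) or the transient T type (Cacna1g, Cacna1h). The beta subunits (Cacnb1, Cacnb2, Cacnb3) bind the L-type pore from inside the cell and promote its surface expression and opening, and the alpha2delta subunits (Cacna2d1, Cacna2d2) sit on its outer side. WTAP, the protein that the targeted gene encodes, is a regulatory subunit of the complex that writes m6A on messenger RNA.

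With 1 pooled library pair per genotype no test between the genotypes was possible, no difference below has a replicate check, and p-values between genotypes were not computed. Every fold is the ratio of IP over input that the authors' caller gave to 1 peak in 1 list. The log10 q of a peak is the authors' measure of its evidence, with more negative values for stronger peaks. A peak had a counterpart where the other list held a peak on that strand sharing 1 exonic base or more. The lists hold no read counts, so depth was unknown. Folds of the 2 lists were set side by side as descriptions, and are not levels of the transcripts, which were not analysed here. More or less modified RNA, fewer cells of a type and less RNA per cell cannot be told apart in these lists. Wtap itself had 3 control and 4 knockout peaks, which do not check the deletion. Of 7 heart muscle markers, 7 carried peaks in each list. Peaks were present for 3 fibroblast markers of 4 (control) and 4 of 4 (knockout), and for all 4 endothelial markers in both. Smooth muscle markers had peaks for 2 of 4 in the control and 4 of 4 in the knockout. Among 5 neuronal markers, 0 had a control peak and 1 (Tubb3) a knockout peak, and none of 5 skeletal muscle markers had a peak in either list. The part of these other cell types in the values below was not tested. Positions are those of mouse build GRCm39. The transcript region of each peak and the sequence under it were not analysed here.

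The first question was whether the channel transcripts carried m6A peaks in both genotypes. Of the 8 genes with a peak, 7 had peaks in both lists, where 77.6% of all genes with a peak did. Cacna1d alone had a peak in the control list only, against 10.5% of all genes, and 0 of the 8 had peaks in the knockout list only, against 11.9%. Within the control list the channel peaks had folds from 2.50 to 24.9 with a median of 6.82, beside a median of 7.22 over all control peaks. Within the knockout list they ran from 1.97 to 19.7 with a median of 4.95, beside 7.03 over all knockout peaks. The median log10 q of channel peaks was -6.94 for the control and -8.78 for the knockout, beside -9.17 and -7.69 over all peaks. The exonic bases under channel peaks added up to 8267 for the control and 6283 for the knockout, and those under all peaks to 7474725 and 7049045. The median channel peak had 241 exonic bases (control) and 301 (knockout), beside 270 and 241 over all peaks.

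**Figure D1:**
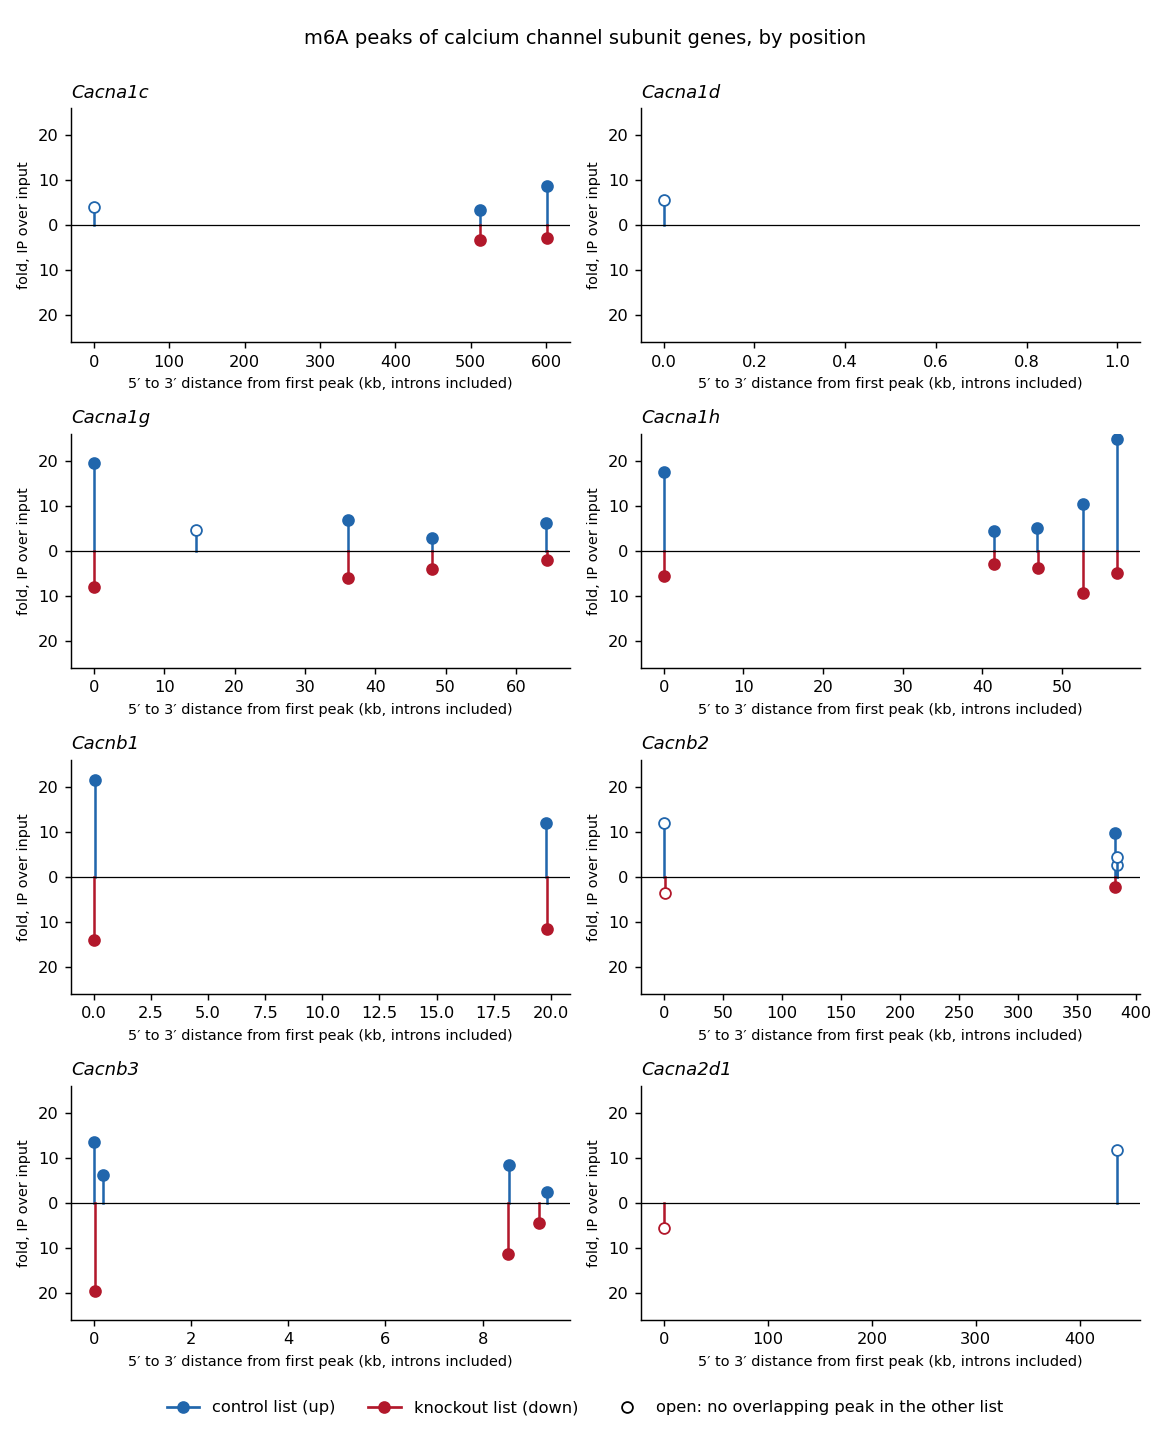
Peaks of the 8 channel genes that had any, placed by distance in kb from the first peak of the gene, 5′ to 3′ with introns included, with the fold of IP over input upward for the control list and downward for the knockout list. Filled points have an overlapping peak in the other list and open points have none. The control fold of 24.9 at the 3′ end of Cacna1h faces a knockout fold of 4.95, and the single peaks of Cacna2d1 lie at opposite ends.

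Peaks with and without a counterpart were then counted. Of the 25 control peaks of these genes, 18 overlapped a knockout peak and 7 did not (28.0%, exact 95% interval 12.1 to 49.4), beside 23.9% of all control peaks. Of the 19 knockout peaks, 17 overlapped a control peak and 2 did not (10.5%, 1.30 to 33.1), beside 24.5% of all knockout peaks. The interval of the control share holds the value over all peaks, and so does that of the knockout share. Among strong peaks, those with q at or under 1e-10, 3 of 10 control peaks had no counterpart (30.0%, 6.67 to 65.2) against 8.72% of all strong control peaks. The 3 belonged to Cacna2d1, Cacnb2 and Cacna1g. In the knockout list 0 of 9 strong channel peaks lacked a counterpart (0 to 33.6%), against 4.04% of all strong knockout peaks. These intervals too hold the values over all strong peaks. At q at or under 1e-20, 1 of 7 strong control peaks had none, the Cacna2d1 peak. The share over all control peaks at that threshold is not given here. The intervals cover counting error only, and peaks of the same gene are not independent.

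Cacna1c encodes the pore of the main L-type channel of ventricular muscle, and it had the strongest peak of all the channel genes. This peak lay at its 3′ side on chromosome 6 at 118570589 to 118571968, on the minus strand, and joined 2 exonic blocks. Its fold was 8.62 in the control list with a log10 q of -224, a q that 1.87% of control peaks undercut. The overlapping knockout peak, at 118570649 to 118571968, had a fold of 2.81 and a log10 q of -24.3. Every exonic base of the knockout peak, 571 in all, lay inside the control peak, so the position was kept while fold and evidence were lower in the knockout list. A second shared peak, at 118660320 to 118661197 in the control, had nearly equal folds of 3.40 and 3.28. The peak nearest the 5′ end, at 119173371 to 119173491, was weak (fold 4.01, log10 q -3.51) and had no knockout counterpart. The nearest knockout peak of the gene was 512203 bases away, introns included.

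Cacna1d encodes the other L-type pore found in the heart, which opens at more negative voltages and acts in pacemaker and atrial cells. It had 1 control peak, on chromosome 14 at 29763962 to 29764142, with a fold of 5.61 and a log10 q of -3.95. Of all control peaks, 74.0% had a smaller q, so the evidence was among the weaker of that list, while 60.1% had a larger fold. No knockout peak was listed for Cacna1d.

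The T-type pore genes carried the largest number of peaks, 5 each in the control list. T-type channels open at low voltages, are abundant in the developing heart and contribute to pacemaking. Cacna1g, on the minus strand of chromosome 11, kept 4 of its 5 control peaks in the knockout list. Its peak nearest the 5′ end, at 94364244 to 94364784, had a control fold of 19.7 and a knockout fold of 8.06, yet a log10 q of -27.0 and -29.2. Fold and evidence therefore did not go together at this peak. The peak nearest the 3′ end differed in width as well. It ran over 870 bases in the control, from 94299727 to 94300596 (fold 6.34, log10 q -62.5), and over 331 bases in the knockout, from 94300057 to 94300387 (fold 1.97, log10 q -6.73). A fold of 1.97 is low within the knockout list, where 96.2% of peaks had a larger one. Of the 3 control peaks between them, 2 had a counterpart, with control and knockout folds of 6.82 and 5.90 at 94324662 to 94328658 and of 3.02 and 3.94 at 94316630 to 94316780. Evidence at both was stronger in the knockout list, at log10 q -27.5 against -15.5 and -10.6 against -6.16. A strong control peak at 94350115 to 94350325 (fold 4.74, log10 q -12.8) had no counterpart, and the nearest knockout peak was 13918 bases away.

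Cacna1h, the other T-type pore gene, lies on the minus strand of chromosome 17 and had 5 peaks in each list, all of them with a counterpart. In each of its 5 pairs the control fold was the larger number. The widest peak of all the channel genes was at its 3′ side, at 25593918 to 25594936 in the control, with 1019 exonic bases, a fold of 24.9 and a log10 q of -70.4. Only 4.75% of control peaks had a larger fold. Its knockout counterpart at 25594127 to 25594876 had 750 bases, a fold of 4.95 and a log10 q of -18.2. Near the 5′ end the control peak (25651368 to 25651787) reached a fold of 17.6 and the knockout peak within it, 91 bases long, a fold of 5.63. Evidence was weak there in both, at log10 q -4.53 and -1.58. The 3 peaks between these had control folds of 4.44, 5.13 and 10.4 in 5′ to 3′ order. Their knockout folds were 2.81, 3.75 and 9.38, so the folds lay closer together. Their log10 q were -7.55, -6.94 and -1.85 in the control and -2.35, -7.42 and -2.75 in the knockout. Evidence was thus weaker in the knockout list at the first and stronger at the others.

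The beta subunit genes did not share a pattern. Cacnb2 encodes the main beta subunit of heart muscle and had 4 control and 2 knockout peaks on the plus strand of chromosome 2, with 1 pair in common. At that pair the control peak (14990440 to 14990919) had a fold of 9.75 and a log10 q of -194, and the knockout peak, at 14990559 to 14990859, a fold of 2.19 and a log10 q of -10.8. Among all channel peaks this control peak was second to that of Cacna1c in evidence. Both control peaks downstream of it had no counterpart, at 14991909 to 14992179 (fold 2.69, log10 q -15.4) and at 14992419 to 14992659 (fold 4.51, log10 q -8.90). At the 5′ end the lists had a peak each that did not touch. The control peak was at 14608529 to 14608769 (fold 12.0, log10 q -4.75), and the knockout peak was 389 bases downstream at 14609159 to 14609249 (fold 3.62, log10 q -2.35). That knockout peak overlapped a peak of Gm10849, a predicted gene on the other strand, by 88 bases, and both carry the same fold and the same log10 q. Cacnb2 and Gm10849 cannot be told apart there.

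Cacnb1, the beta subunit best known from skeletal muscle, had 2 peaks in each list on chromosome 11, both with a counterpart. At 97913278 to 97913740 the folds were 21.7 (control) and 14.1 (knockout), and at 97893683 to 97894013 they were 12.0 and 11.5. Evidence was stronger in the knockout list at both, with log10 q of -4.89 against -11.7 and -3.31 against -8.78, control first. The first of these was a strong peak in the knockout list only, although the peak itself was present in both.

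Cacnb3, a beta subunit widely expressed in brain and smooth muscle, went the other way from Cacna1h. Its 4 control peaks all had a counterpart among 3 knockout peaks on chromosome 15, and in each of its pairs the knockout fold was the larger number. The peak at 98541213 to 98541483 had a fold of 8.39 and a log10 q of -21.2 in the control and 11.3 and -37.3 in the knockout. Further 3′, the control peak (98541991 to 98542260) had a fold of 2.50 and a log10 q of -4.04, and the knockout peak at 98541812 to 98542320 had 4.44 and -12.8. At the 5′ end 2 control peaks, at 98532661 to 98532750 (fold 13.6) and 98532840 to 98533050 (fold 6.22), both overlapped 1 knockout peak of 3 exonic blocks, at 98532691 to 98537706 (fold 19.7, log10 q -4.11). The exonic bases under Cacnb3 peaks numbered 842 for the control and 1408 for the knockout, whereas those of Cacnb2 were 1233 and 392. Among knockout peaks of markers, 5 of 10 for smooth muscle, 4 of 10 for fibroblasts, 3 of 7 for endothelium and 0 of 23 for heart muscle had no control counterpart, beside the 24.5% of all knockout peaks. Among control peaks it was 0 of 6, 1 of 7, 1 of 6 and 4 of 28 in that order, beside 23.9%. Whether other cell types bear on the Cacnb3 values was not tested.

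Cacna2d1 encodes the main alpha2delta subunit of the heart, and its lists did not meet. The control peak lay towards the 3′ end on chromosome 5, at 16575671 to 16576120 on the plus strand, with 450 bases, a fold of 11.9 and a log10 q of -36.8. The knockout peak lay 435711 bases upstream, introns included, at 16139749 to 16139959, with 211 bases, a fold of 5.63 and a log10 q of -8.56. The control peak was the strongest channel peak without a counterpart. Counting this gene as one with peaks in both lists therefore says nothing of a shared site.

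**Figure D2:**
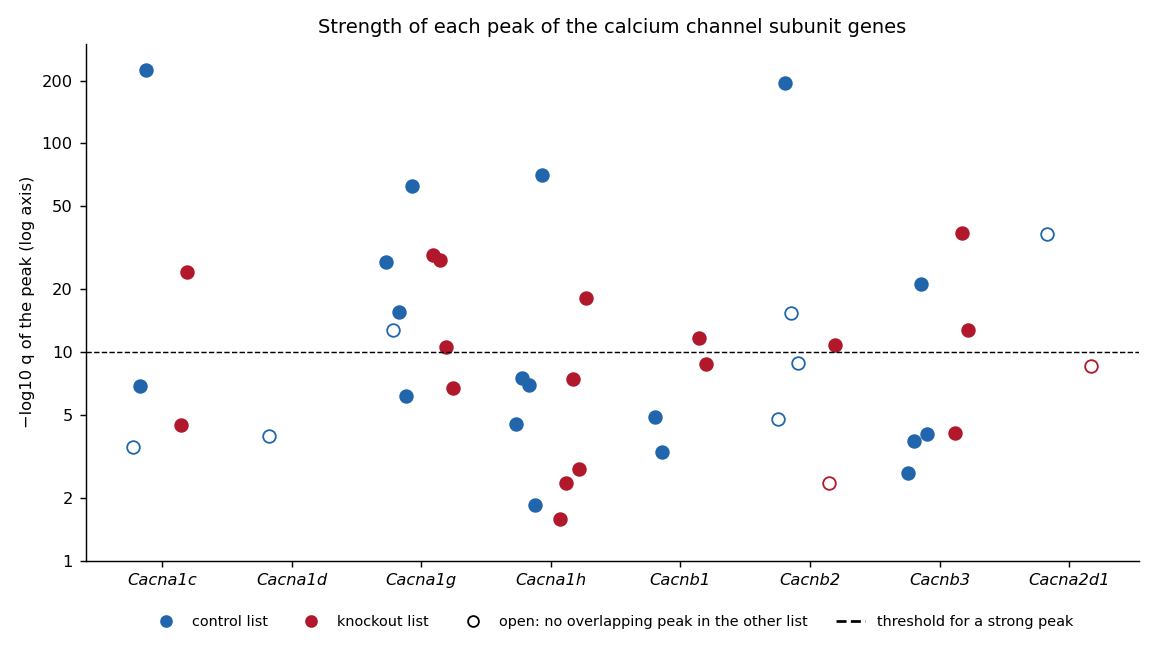
Evidence for every peak of the 8 channel genes, as −log10 q on a log axis, with 1 point per peak and the control list to the left of the knockout list for each gene. Open points have no overlapping peak in the other list. The highest control points are those of Cacna1c and Cacnb2 (log10 q -224 and -194), and the highest knockout point is that of Cacnb3 (log10 q -37.3).

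The folds of overlapping peaks were compared as pairs, each control peak with the knockout peak that shared most bases, a comparison chosen after the values were seen. In 13 of 18 channel pairs the knockout fold was the lower number, where this held for 47.9% of all 15793 pairs. Counted apart from the folds, the knockout q was the larger, weaker one in 7 of 18 channel pairs, against 49.2% of all pairs. Fold and evidence were both lower in the knockout list at both Cacna1c pairs, the 3′ peak of Cacna1g and the shared Cacnb2 peak. The same held at the Cacna1h control peaks that start at 25651368, 25610156 and 25593918. At the 5′ peak of Cacna1g and both pairs of Cacnb1 the knockout fold was lower while its evidence was stronger. So it was at the Cacna1g control peak that starts at 94324662 and the Cacna1h control peaks that start at 25604668 and 25597830. The control fold was at least 2 times the knockout fold in 6 of 18 pairs (33.3%), against 15.7% of all pairs. These were the 3′ peaks of Cacna1c, Cacna1g and Cacna1h, the 5′ peaks of Cacna1g and Cacna1h, and the shared peak of Cacnb2. The reverse, a knockout fold at least 2 times the control fold, was found in 1 of 18 (5.56%), at the 5′ end of Cacnb3, against 17.6% of all pairs. By subunit class, the knockout fold was lower in 10 of 11 pairs of alpha1 genes, with a median ratio of control over knockout fold of 1.58. For beta genes it was lower in 3 of 7 pairs, with a median ratio of 0.742. These 3 were all the pairs of Cacnb1 and Cacnb2, and the remaining beta pairs were all of Cacnb3. In Cacnb3, 2 control peaks were paired with 1 and the same knockout peak. The median ratio over all pairs was 0.964. The knockout q was the weaker one in 6 of 11 alpha1 pairs and in 1 of 7 beta pairs. The alpha1 pairs were of Cacna1c, Cacna1g and Cacna1h only, since Cacna1d had no pair. The difference between the classes was not tested, since pairs of the same gene share their RNA. In 7 of 18 channel pairs the knockout peak had fewer exonic bases, against 43.4% of all pairs.

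**Figure D3:**
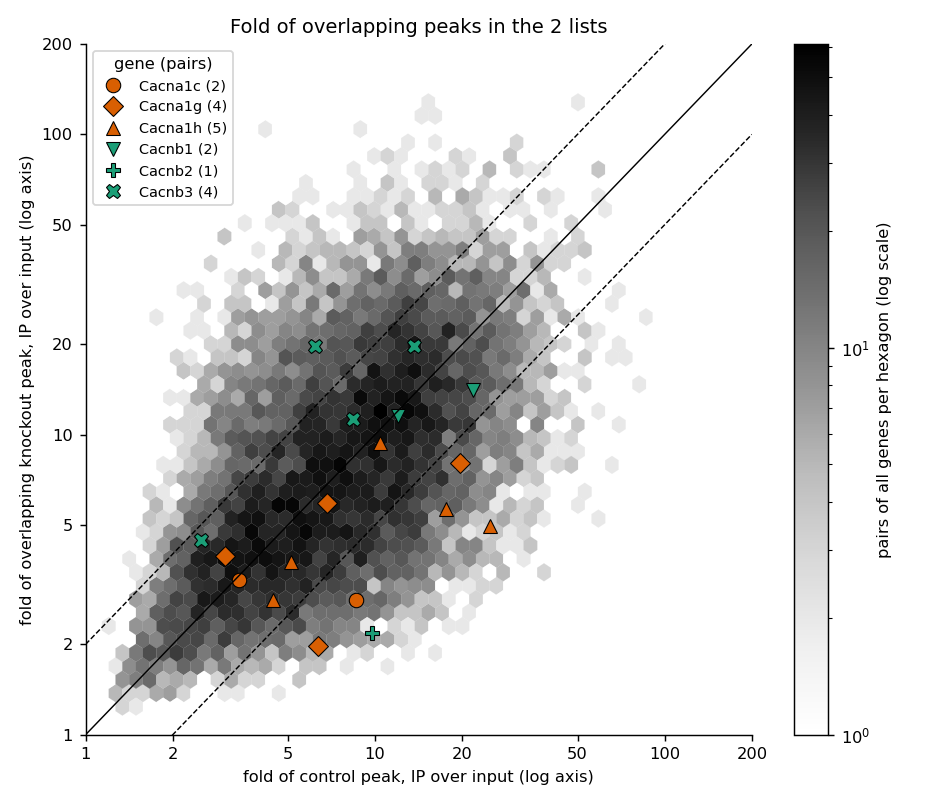
Fold of each control peak against that of the knockout peak overlapping it, on log axes, for 18 pairs of channel genes (alpha1 genes orange, beta genes green) over the pairs of all genes in grey. The solid line marks equal folds and the dashed lines a factor of 2. Of the channel pairs, 6 lie on or below the lower dashed line and 1 lies above the upper one.

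Other genes of the channel complex and its regulation were taken from lists of 17 genes each. Of the 17 remaining subunit genes, which serve mainly nerve cells and skeletal muscle, 15 had no peak in either list, 1 had peaks in both and 1 in the knockout list only. The latter was Cacng4, a gamma subunit gene, whose weak peak spanned 107624732 to 107624881 of chromosome 11, with a fold of 15.9 and a log10 q of -3.10. Cacna1a, the P/Q-type pore gene of nerve terminals, named after its values were seen, had 1 control and 4 knockout peaks, none overlapping. All of these were weak, with log10 q between -5.04 and -2.13.

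Regulators and partners of the cardiac L-type channel, such as calmodulins, small GTPases of the RGK group and membrane scaffolds, had peaks in both lists for 14 of 17 genes. The share of 77.6% over all genes counts only genes with a peak, and 15 of these 17 had one. In 1 of the 17 there were peaks in the knockout list only, namely Calm2, a calmodulin gene (chromosome 17, 87743207 to 87754243, fold 2.28, log10 q -7.29), and 2 had none in either list. Of the 41 control peaks of these regulators 3 had no counterpart, and of the 46 knockout peaks 6 had none, beside 23.9% and 24.5% of all peaks. Among their strong peaks it was 1 of 28 in the control and 0 of 26 in the knockout, beside 8.72% and 4.04%. Ahnak, a giant scaffold gene named after its values were seen, held 18 of the 41 and 21 of the 46.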

How the data were processed

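RNA from 4-day-old hearts was pooled per genotype (7 control, 8 knockout mice), fragmented to about 100 nt and sequenced with paired 150-base reads, per the labels' protocols. Title and genotype labels gave the groups, and the knockout titles use another abbreviation than the genotype label. Per the series' design text, the authors used exomePeak 2.16.0 to call peaks per genotype in the IP over the matching input, keeping q up to 0.05. Build GRCm39, HOMER 4.9.1, BWA 0.7.12 and fastp 0.19.11 come from the submitters' processing notes, which give no roles. The deposited score column is each peak's p-value, the authors' log10 p and log10 q were read as a score because they reach minus infinity, and the authors' fold is a ratio of IP over input with unstated scaling.

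Peaks were selected by gene name with pandas 2.3.3 and numpy 2.4.6 under Python 3.11.15, and plotted with matplotlib 3.10.9. Exonic overlap on the same strand was found with the intervaltree package, whose version is not given here. The overlap code was tested on simulated data. Shares have exact (Clopper-Pearson) 95% intervals. All 9 symbols matched a RefSeq table of GRCm38.p6, whose coordinates were not used. The genes and gene lists were chosen with earlier results of these data known. All 9 genes are named, and of the lists of other subunits and of regulators those with peaks in 1 genotype only.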

Additional observations from a re-analysis of the deposited data

How the results depend on the processing

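Of 45 values recomputed under other settings, 40 stayed within 1.5 times the main count. Some of these were counts of 0 that stayed 0, which says little of stability. They were for genes with knockout peaks only and for strong knockout peaks without a counterpart. With peaks limited to folds of at least 4, control peaks of channel genes without a counterpart rose from 7 of 25 to 11 of 21. Genes with control peaks only rose from 1 of 8 to 3 of 8. In both cases knockout peaks with lower folds leave the list. With q at or under 0.001, knockout peaks without a counterpart went from 2 of 19 to 1 of 15. Strong control peaks without a counterpart were 1 of 7 at q at or under 1e-20 against 3 of 10 at 1e-10. Strong knockout peaks without a counterpart were 1 of 13 at q at or under 1e-05 against 0 of 9 at 1e-10. Shares over all peaks or genes under these settings are not given here. Whether the changes are particular to channel genes was therefore not tested. The settings tried were stricter q, folds of at least 2 or 4, equal numbers of peaks per list (20766), overlap of at least 50% of the shorter peak, whole spans and either strand. The pairs with a control fold at least 2 times the knockout fold stayed at 5 or 6 under the 4 settings tried for them, added after the data were seen. No paired analysis was possible because each group had 1 library. Depth was unknown, so a peak missing from a list may lie under the caller's threshold.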

Other observations

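Position within the gene was looked at after the values were seen. In the 6 channel genes with 2 or more control peaks, the control peak nearest the 3′ end had a knockout counterpart in 5. Its control fold was at least 2 times the knockout fold in 3 of these 5, in Cacna1c, Cacna1g and Cacna1h, where this held for 17.8% of 4061 such peaks over all genes. In the other two, Cacnb1 had folds of 12.0 and 11.5 and Cacnb3 had 2.50 and 4.44. The sixth gene, Cacnb2, had no counterpart at its last control peak. Among the remaining 13 channel pairs, 3 (23.1%) had a control fold at least 2 times the knockout fold, beside 15% of the other 11732 pairs over all genes. Those 11732 include pairs of genes with 1 control peak, which the 13 do not, so the sets are not alike.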
